A study of Homo sapiens with 6 samples.

Results

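The endoplasmic reticulum (ER) folding and export machinery was followed here through 40 genes, taken by their names with earlier results of these data known, out of 58735 genes in the count table. They fall into 12 folding genes, 9 genes of the unfolded protein response and ER-associated degradation, 11 genes of the COPII coat and its collagen adaptor, 4 retrieval and cargo receptors, and 4 genes of the translocon. All 40 had enough counts to be tested, with 357 to 54370 counts per gene and library.

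RNA sequencing was done on LX-2, an immortalised human hepatic stellate cell line, whose genotype is labelled WT. Every library came from cells transfected with an siRNA labelled as targeting NSUN2, an enzyme that methylates cytosines in RNA. The series design gives NAT10 as its target in 1 place, and the sample labels were used here. In 1 group of 3 libraries the cells received the siRNA without TGF-β1 (called untreated below), and in the other group of 3 they received TGF-β1 at 5 ng/ml, beginning 48 h after transfection, for 24 h before RNA was taken. Cells without the siRNA were not analysed here, so every value below belongs to NSUN2 siRNA cells and says nothing of what the siRNA changed. The labels call the libraries biological replicates of 1 cell line and do not say how the cultures were kept apart, so p-values measure the spread between these libraries.

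Secreted proteins enter the ER through the SEC61 translocon, fold there with the help of chaperones and disulfide isomerases, and leave in vesicles coated with COPII. When folding falls behind, sensors in the ER membrane start the unfolded protein response, in which ATF6 and XBP1 raise chaperone and degradation genes. Hepatic stellate cells are the main collagen producers of the injured liver, and procollagen depends on MIA3 and the COPII coat to leave the ER.

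Promoter letters are shown first, because 8 of the 11 folding genes with a promoter entry hold letters of an ER stress response element. The genes were chosen by name as ER folding and stress response genes, so this match is a description and not an independent finding. RefSeq windows (GRCh38.p14) of 250 bases before to 50 after a transcript start were matched for 37 of the 40 genes, PDIA3, SEC24D and KDELR2 having no entry. The element called ERSE was searched on both strands as CCAAT, 9 bases of any kind, then CCACG. It occurred in 27 of 34796 windows in all (0.0776%), and 7 of the 37 matched genes had it. A gene can have several windows, so here and below shares of windows and of genes are in unlike units. Where a gene has several windows, the distance below is from the start of a single window. The CANX site also began at -189 and -9 from other starts (minus for bases before). CANX, PDIA6 and XBP1 each also had a window without the element. In the sequences below, written on the strand of the motif with 5 flanking bases, capitals mark the fixed letters of the motif.
HSPA5, chr9:125241386-125241414, minus strand, 66 bases before the start: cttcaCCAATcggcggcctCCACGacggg
HSP90B1, chr12:103930211-103930239, plus strand, 194 bases before the start: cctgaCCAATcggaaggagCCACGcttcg
HSP90B1, chr12:103930316-103930344, minus strand, 89 bases before the start: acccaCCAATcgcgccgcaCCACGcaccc
CANX, chr5:179698773-179698801, plus strand, 151 bases before the start: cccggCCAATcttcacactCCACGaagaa
CALR, chr19:12938379-12938407, minus strand, 225 bases before the start: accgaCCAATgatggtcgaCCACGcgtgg
PDIA6, chr2:10812848-10812876, minus strand, 86 bases before the start: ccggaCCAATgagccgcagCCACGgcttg
CRELD2, chr22:49918549-49918577, minus strand, 80 bases before the start: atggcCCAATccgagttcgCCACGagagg
XBP1, chr22:28800598-28800626, minus strand, 52 bases before the start: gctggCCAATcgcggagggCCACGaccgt

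The related ERSE-II, searched as ATTGG, 1 base of any kind, then CCACG, occurred in 19 of the 34796 windows (0.0546%) and in 3 of the 37 genes, which are HYOU1, HERPUD1 and SDF2L1. No window held both elements among these genes.
HERPUD1, chr16:56932020-56932040, plus strand, 117 bases before the start: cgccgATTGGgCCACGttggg
SDF2L1, chr22:21642109-21642129, minus strand, 188 bases before the start: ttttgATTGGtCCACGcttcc
HYOU1 held ERSE-II at 2 places, both on the strand opposite to the gene, and the more distant copy overlapped a UPRE (TGACGTGG, the unfolded protein response element). Its window from 203 to 54 bases before the start, chr11:119057259-119057408 on the minus strand, is given whole, with the fixed letters of both elements in capitals as they read on the gene's strand.
HYOU1: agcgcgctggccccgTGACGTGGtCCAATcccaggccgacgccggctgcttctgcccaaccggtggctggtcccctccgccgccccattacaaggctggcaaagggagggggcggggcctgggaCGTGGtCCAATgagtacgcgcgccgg
The UPRE letters occurred in 255 windows (0.733%) and in 4 of the 37 genes, HYOU1, KDELR3, SEC23A and SEC24A, so that outside the folding group they fell in 2 genes of the coat and 1 retrieval receptor.
SEC23A, chr14:39103227-39103244, minus strand, 4 bases before the start: cctctTGACGTGGcagag
SEC24A, chr5:134648601-134648618, plus strand, 179 bases before the start: gtcggTGACGTGGcggcg
KDELR3, chr22:38468045-38468062, minus strand, 46 bases before the start: ggcggTGACGTGGccagg
Of the motifs of other factors, the CRE (TGACGTCA) occurred in 1 gene, CREB3L2, against 1.84% of all windows. The SMAD pair (GTCTAGAC) occurred in none of the 37 genes against 0.193% of windows, and the short CAGA motif (CAGACA) in 6 genes against 16.9%. By GENCODE 29, the printed sites of HSP90B1, CANX and SEC23A lie within annotated exons, that of KDELR3 shares 1 base with an exon, and the others lie in none. A match is a description of letters and not evidence of binding, and the CAGA letters are part of no other motif searched.

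The 6 libraries held 25828504 to 30034762 counts, and 17215 genes were tested. Libraries correlated at 0.988 to 0.990 within a group and 0.971 to 0.974 between groups (log CPM, across genes), and a second principal component with 12.1% of the variance set TGF-β1 replicate 1 (33.1) apart from replicate 3 (-27.4). CPM values, other than the summed marker levels, are counts scaled to the library total times its TMM factor. They do not sum to the same total in every library. NSUN2 itself was at 81.4, 82.9 and 84.4 CPM without TGF-β1 and at 103, 97.0 and 102 with it. Its log2 fold change was 0.28 ± 0.04 (SE, adjusted p = 1.57e-06). With no library without the siRNA analysed here, these values cannot show a knockdown. Of 10 stellate markers 3 rose (COL1A1 1.49, PDGFRB 1.75, VIM 0.08), 3 fell (RELN -3.32, NGFR -0.73, GFAP -0.75), PDGFRA did not pass the test and 3 were not tested, LRAT being at 0. Their summed level was 2601 to 2646 CPM untreated and 4770.4 to 5345 with TGF-β1, of which COL1A1, also counted among the cargo below, made up means of 1418 and 3993 CPM. Summed markers of other liver cells were low, at 24.6 to 28.5 and 20.4 to 22.1 CPM for 6 hepatocyte genes (TTR and CYP3A4 at 0), 2.80 to 3.59 and 3.77 to 5.16 for 4 cholangiocyte genes (CFTR at 0), 1.89 to 2.83 and 1.52 to 2.17 for 6 endothelial genes (LYVE1 at 0), and 8.51 to 10.9 and 2.79 to 5.80 for 6 leukocyte and Kupffer cell genes (none at 0). Their part in the results was not tested.

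With TGF-β1 the secretory genes rose more often than they fell, by small amounts. Of the 40, 26 rose, 2 fell and 12 did not pass the test (edgeR quasi-likelihood, Benjamini-Hochberg over all tested genes, adjusted p under 0.05). Over all tested genes 20.2% rose, 18.7% fell and 38.9% moved either way. Since 39 of the 40 had a mean of at least 20 CPM, the closer background is the 7946 tested genes at that level, of which 32.8% rose, 22.9% fell and 55.7% moved either way. The share of the 40 that rose, 65%, was thus well above the background, and the share that fell, 5%, below it. Their median log2 fold change was 0.15, against -0.01 for all tested genes and 0.03 for those of at least 20 CPM.

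In 28 of the 40 every TGF-β1 library was higher than every untreated library, and in 2 every one was lower. Such separation occurred upward in 24.1%, downward in 23.3% and either way in 47.4% of all tested genes, and in 36.5%, 25.5% and 61.9% of those of at least 20 CPM. The changes were small, since 2 of the 40 (CREB3L1 and XBP1) reached an absolute log2 fold change of 0.5, a size reached by 22.4% of all tested genes and by 10.7% of those of at least 20 CPM. In these bulk libraries a change in RNA per cell and a change in the make-up of the culture cannot be told apart.

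**Figure D1:**
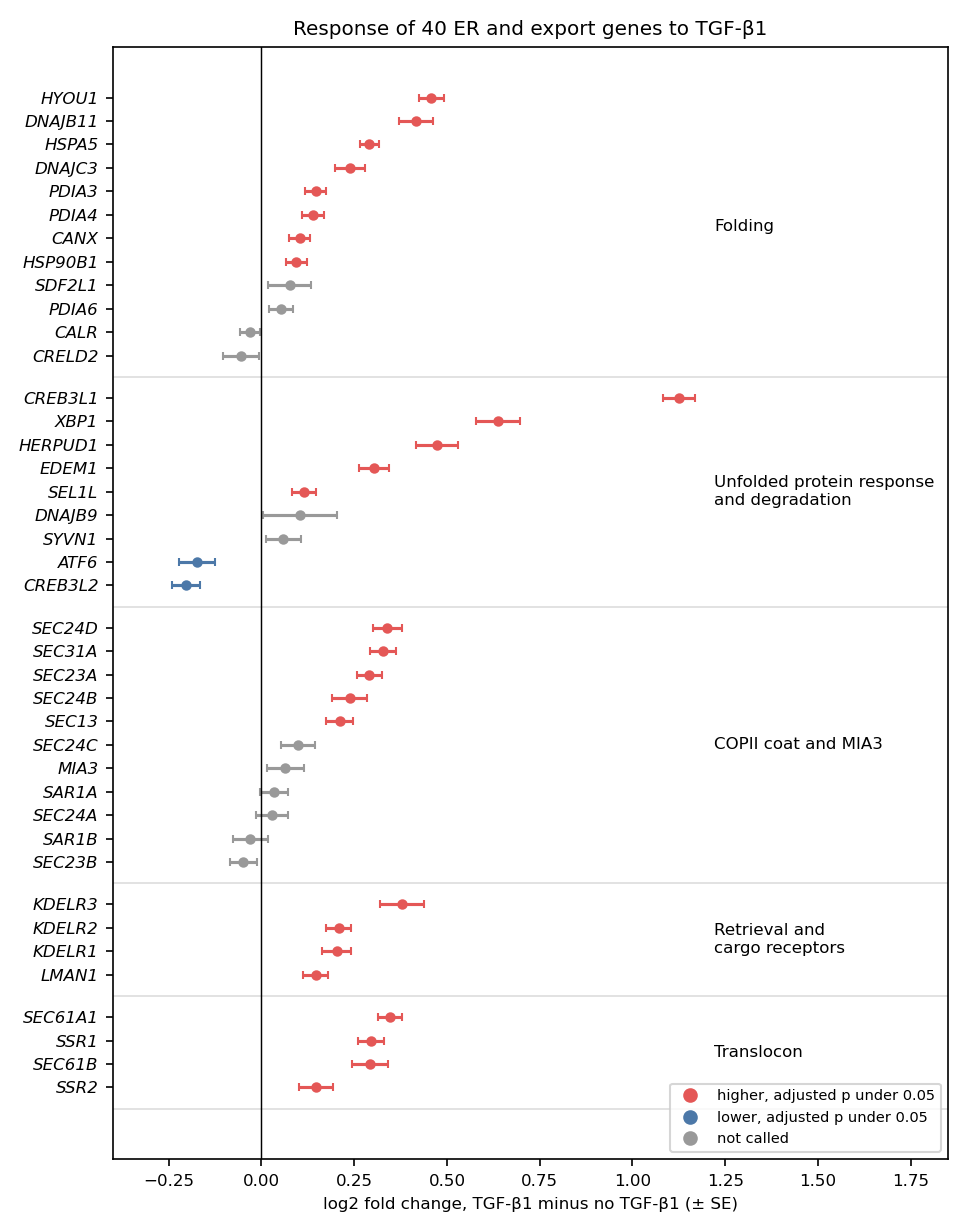
Log2 fold change of each of the 40 genes (horizontal axis, TGF-β1 minus no TGF-β1, points with SE, n = 3 libraries per group), grouped by role. Red points rose, blue points fell and grey points did not pass the test, with CREB3L1 at 1.12 farthest to the right and CREB3L2 at -0.20 farthest to the left.

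The scaling between libraries moved these counts. Scaling to library totals alone in place of TMM factors shifted the median of all tested genes by -0.12 on the log2 scale. Under it, 18 of the 40 rose and 6 fell, so that 75% of their calls were upward against 92.9% with TMM factors, while over all tested genes 27.4% of calls were upward against 51.8%. With upper-quartile factors 22 rose and 4 fell, while 16.4% of all tested genes rose and 22.6% fell. HSP90B1, CANX, SEL1L and SSR2 did not pass there. A scaling shifts all genes alike, so the gap of 0.15 between the median of the 40 and that of all tested genes is the same under each by construction. Summed over the 40 genes, the share of all counts was 1.19% untreated and 1.24% with TGF-β1, which is itself scaling to library totals. With TMM factors the sum was 11477 CPM untreated and 12890 CPM with TGF-β1. Of the 28 genes called, 19 kept their call and direction in all 17 alternative settings, 18 of them higher and 1 lower (CREB3L2), and 23 kept them in every setting other than library totals.

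Levels per gene length spanned a wide range. Untreated means ran from 4.83 FPKM (fragments per kilobase, scaled to library size) for DNAJB9 to 459 for CALR, with a median of 21.2 against 3.41 over all tested genes. The most abundant transcripts were all of the folding group. CALR (459 ± 8.2 FPKM, SD, n = 3) stood above HSPA5 (380 ± 1.2), HSP90B1 (291 ± 9.6) and CANX (201 ± 4.8), and these neighbours differed by more than their spread. With TGF-β1 the first places changed hands on this measure, as HSPA5 reached 466 ± 6.9 FPKM while CALR was at 451 ± 5.7. That order depends on the gene length used. In CPM, HSPA5 (mean 1529), HSP90B1 (1410) and CANX (1294) already stood above CALR (1285) untreated. At the low end stood DNAJB9, MIA3 at 6.22 ± 0.13 and SAR1B at 7.19 ± 0.24 FPKM.

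**Figure D2:**
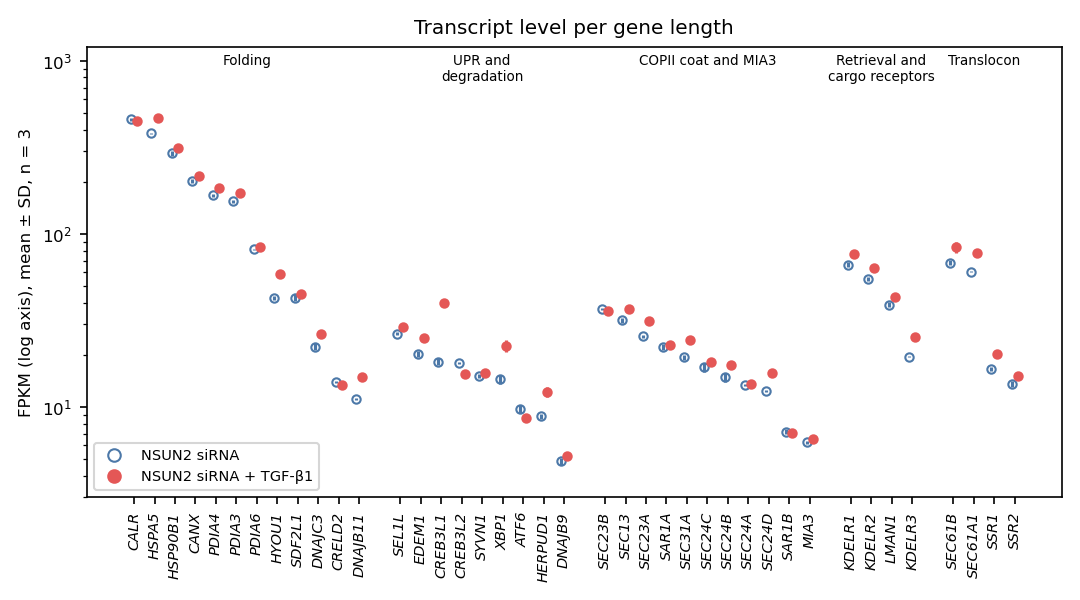
Mean FPKM with SD (vertical log axis, n = 3 libraries per group) of the 40 genes, open points untreated and filled points with TGF-β1, ordered within each role. Folding genes hold the highest levels, from CALR at 459 FPKM, and the lowest level is DNAJB9 at 4.83 FPKM.

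Among the 12 folding genes 8 rose, none fell and 4 did not pass the test, with a median of 0.12. The largest rises were in HSPA5 and the genes that serve it. HSPA5 encodes BiP, the ER Hsp70 chaperone and a brake on the stress sensors. Its libraries read 1529.9, 1531 and 1526 CPM untreated and 1841, 1897 and 1873 with TGF-β1. The groups lay far apart relative to their spread, a log2 fold change of 0.29 ± 0.03 (SE, adjusted p = 2.11e-12). HYOU1, an ER chaperone that acts as a nucleotide exchange factor for BiP, read 345, 329 and 342 CPM untreated and 493, 458 and 446 with TGF-β1. That was the largest rise of the group, 0.46 ± 0.03 (adjusted p = 1.16e-14), with TGF-β1 replicate 1 highest. DNAJB11, a J-domain co-chaperone of BiP, went from 66.1, 64.5 and 66.5 CPM to 86.8, 88.5 and 87.7, a change of 0.42 ± 0.05 (adjusted p = 6.37e-10). DNAJC3, another BiP co-chaperone, went from 135, 126 and 124 CPM to 153, 156 and 145, a change of 0.24 ± 0.04 (adjusted p = 3.97e-06). For all 4 genes the groups did not overlap.

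The lectin chaperones and the ER Hsp90 moved little. HSP90B1, the ER Hsp90, read 1429.5, 1359 and 1441 CPM untreated and 1552, 1485 and 1477 with TGF-β1, 0.09 ± 0.03 (adjusted p = 0.00737). Leaving out untreated replicate 2 ended that call (0.06, adjusted p = 0.105), and with library totals the change was -0.025. CANX, the membrane-bound lectin chaperone of glycoproteins, rose by 0.10 ± 0.03 (adjusted p = 0.00255), and with library totals it was at -0.015. CALR, its soluble partner, did not pass the test, at 1271, 1271 and 1312 CPM untreated and 1272, 1241 and 1259 with TGF-β1, and its groups overlapped. Its log2 fold change was -0.03 ± 0.03 (adjusted p = 0.401), and it was called lower with upper-quartile factors (-0.08) and with library totals (-0.15).

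Of the disulfide isomerases, PDIA3, which works with calnexin and calreticulin, rose by 0.15 ± 0.03 (adjusted p = 5.3e-05) and PDIA4 by 0.14 ± 0.03 (adjusted p = 0.000187). Neither passed with library totals (0.03 and 0.02). PDIA6 was at 0.05 ± 0.03 (adjusted p = 0.214) and passed the test without TGF-β1 replicate 1 (0.08, adjusted p = 0.0387). SDF2L1, which binds DNAJB11, was at 0.08 ± 0.06 (adjusted p = 0.329), and CRELD2, an ER stress-inducible ER protein, at -0.05 ± 0.05 (adjusted p = 0.407). CRELD2 was called lower with library totals (-0.17).

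Read against the promoter sequences above, the letters did not set the folding genes that rose apart from the others. Of the 8 folding genes with ERSE or ERSE-II, 4 rose (HYOU1, HSPA5, CANX and HSP90B1) and 4 did not pass the test (SDF2L1, PDIA6, CALR and CRELD2), a median of 0.08. The 3 folding genes with a window and neither element, DNAJB11, DNAJC3 and PDIA4, all rose, a median of 0.24. Over the whole set, 6 of 10 genes with an element and 17 of 27 without one rose, at medians of 0.10 and 0.15. The 2 genes with UPRE letters in the coat differed from each other, SEC23A rising and SEC24A at 0.03.

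In the unfolded protein response and degradation group, 5 of 9 genes rose, 2 fell and 2 did not pass the test, with a median of 0.12. Both the largest rise and the largest fall of the 40 genes were in membrane-bound transcription factors of this group. CREB3L1 and CREB3L2 are related ER-anchored factors released by cleavage in the Golgi, and CREB3L1 is known to activate collagen I transcription in bone. CREB3L1 read 75.3, 80.1 and 72.5 CPM untreated and 172, 163 and 162 with TGF-β1. Its level was thus 2.18-fold higher, a log2 fold change of 1.12 ± 0.04 (adjusted p = 8.74e-25), which ranked 1096 by size among the 17215 tested genes. CREB3L2 moved the other way, from 158, 164 and 163 CPM to 141, 140.4 and 140.2, a log2 fold change of -0.20 ± 0.04 (adjusted p = 1.51e-05). Neither gene's groups overlapped. ATF6, the ER stress sensor that becomes a transcription factor by the same cleavage, also fell, from 78.1, 83.8 and 75.8 CPM to 71.4, 70.6 and 69.0, -0.17 ± 0.05 (adjusted p = 0.00394). That call was lost with limma on unfiltered FPKM (adjusted p = 0.0617).

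XBP1, whose mRNA is spliced by IRE1 to give an active factor, showed the second largest rise of the 40. It read 42.1, 48.1 and 44.6 CPM untreated and 63.5, 72.5 and 73.7 with TGF-β1, a change of 0.64 ± 0.06 (adjusted p = 9.31e-12). Its groups did not overlap, with TGF-β1 replicate 1 the lowest treated library. Counts per gene do not separate the spliced from the unspliced form. HERPUD1, an ER membrane protein that helps assemble the degradation complex, rose from 46.6, 45.2 and 48.5 CPM to 67.1, 67.4 and 60.0, 0.47 ± 0.06 (adjusted p = 3.51e-09). EDEM1, a mannosidase-like protein that marks misfolded glycoproteins, read 147, 138 and 139 CPM untreated and 184, 165 and 173 with TGF-β1, 0.30 ± 0.04 (adjusted p = 3.3e-08).

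The core of the degradation ligase moved less. SEL1L, the scaffold of the SYVN1 ligase, rose by 0.12 ± 0.03 (adjusted p = 0.00372), and with library totals it was at -0.0035. SYVN1, the ubiquitin ligase itself, was at 0.06 ± 0.05 (adjusted p = 0.343). DNAJB9, a BiP co-chaperone that restrains IRE1, was at 14.7, 14.3 and 13.3 CPM untreated and 14.4, 15.4 and 15.8 with TGF-β1, 0.10 ± 0.10 (adjusted p = 0.451). It was the scarcest of the 40 transcripts, and its standard error was the widest.

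**Figure D3:**
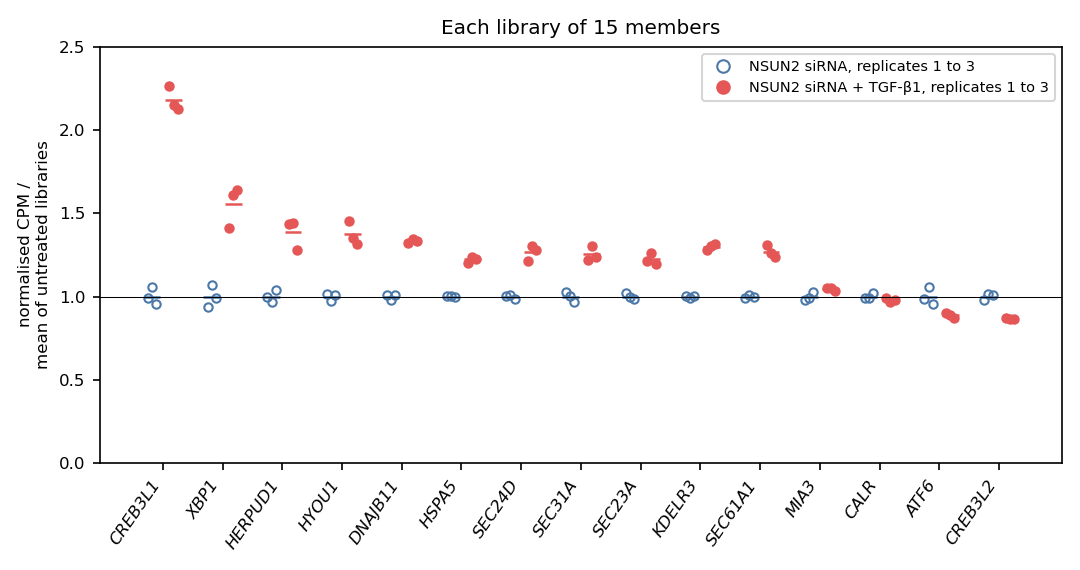
Normalised CPM of each library divided by the gene's untreated mean (vertical axis, from 0) for 15 of the genes, open points untreated, filled points TGF-β1 and short lines the group means. TGF-β1 libraries of CREB3L1 lie around 2.18 times the untreated mean, those of ATF6 and CREB3L2 lie below 1, and the groups of CALR overlap.

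Among the 11 genes of COPII export, 5 rose, none fell and 6 did not pass the test, with a median of 0.10. The rises were in genes of the inner and the outer coat, and the starting GTPases and the collagen adaptor did not pass the test. SEC23A and SEC23B are paralogous subunits of the inner coat, and SEC23A is the one linked to a human craniofacial disorder with poor collagen export. SEC23A rose from 240.4, 235 and 232 CPM to 286, 297 and 282, 0.29 ± 0.03 (adjusted p = 1.3e-09). SEC23B read 167, 167 and 164 CPM untreated and 161, 164 and 156 with TGF-β1, -0.05 ± 0.04 (adjusted p = 0.305), with groups that overlapped. It was called lower with upper-quartile factors (-0.09) and library totals (-0.17).

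The SEC24 subunits bind the cargo, and their 4 paralogs split. SEC24D, variants of which are linked to inherited bone fragility, rose from 128, 128 and 125 CPM to 154, 165 and 162, 0.34 ± 0.04 (adjusted p = 8.3e-10). SEC24B rose from 84.9, 76.7 and 76.8 CPM to 96.7, 93.0 and 91.7, 0.24 ± 0.05 (adjusted p = 6.44e-05). SEC24C was at 0.10 ± 0.05 (adjusted p = 0.0857), its groups apart but the difference not called, and SEC24A was at 0.03 ± 0.04 (adjusted p = 0.655) with groups that overlapped.

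Both outer coat genes rose. SEC31A, which bridges the coat with SEC13, read 187, 183 and 176 CPM untreated and 222, 237 and 226 with TGF-β1, 0.33 ± 0.04 (adjusted p = 4.09e-10). SEC13, which also serves in the nuclear pore, rose by 0.21 ± 0.04 (adjusted p = 5.38e-06). The GTPases that start the coat did not pass the test, SAR1A at 0.03 ± 0.04 (adjusted p = 0.512) and SAR1B at -0.03 ± 0.05 (adjusted p = 0.66), and SAR1B was called lower with library totals (-0.15). MIA3, also called TANGO1, ties procollagen to the coat. It read 64.0, 64.8 and 66.9 CPM untreated and 68.6, 68.6 and 67.4 with TGF-β1, so that the groups did not overlap but the difference, 0.06 ± 0.05, was not called (adjusted p = 0.328).

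All 4 retrieval and cargo receptors rose, with a median of 0.21. The KDEL receptors return escaped chaperones such as BiP from the Golgi. KDELR3, the scarcest of them, rose from 38.8, 38.4 and 38.7 CPM to 49.4, 50.3 and 50.9, 0.38 ± 0.06 (adjusted p = 1.23e-06). KDELR2 rose by 0.21 ± 0.03 (adjusted p = 2.43e-06) and KDELR1 by 0.20 ± 0.04 (adjusted p = 4.22e-05). LMAN1, a lectin that carries glycoproteins out of the ER, rose by 0.15 ± 0.03 (adjusted p = 0.000344). With library totals 2 of the 4 passed, KDELR2 and KDELR3, while KDELR1 was at 0.08 and LMAN1 at 0.03.

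All 4 translocon genes rose as well, with the highest median of the groups, 0.29. SEC61A1, the channel itself, read 291, 296 and 291 CPM untreated and 384, 369.7 and 362 with TGF-β1, 0.35 ± 0.03 (adjusted p = 4.49e-12). SEC61B, its small tail-anchored subunit, went from 80.7, 83.2 and 86.9 CPM to 95.8, 109.9 and 101, 0.29 ± 0.05 (adjusted p = 2.9e-06). SSR1 and SSR2 encode subunits of the translocon-associated protein complex, which helps some proteins start their passage. SSR1 rose by 0.29 ± 0.03 (adjusted p = 2.7e-09). SSR2 rose by 0.15 ± 0.05 (adjusted p = 0.00861), a call that ended when untreated replicate 2 (adjusted p = 0.0513) or TGF-β1 replicate 3 (adjusted p = 0.0993) was left out, and with library totals (0.03). The 4 receptors and 4 translocon genes are short lists, and whether they differ from the other roles was not tested.

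The balance between paralogs, and between the chaperones HSP90B1 and HSPA5, which are not paralogs, was compared within each library, where scaling cancels. FPKM ratios and shares gave 11 measures, each tested with an exact two-sided permutation test whose smallest possible p with 3 against 3 libraries is 0.1 (0.183 adjusted over the 11), so none could pass. The log2 ratio of SEC23A to SEC23B was -0.50, -0.54 and -0.53 untreated and -0.20, -0.17 and -0.18 with TGF-β1, a shift of 0.34 with no overlap (exact permutation p = 0.1). Per gene length SEC23B was thus the more abundant paralog in every library, by less with TGF-β1. SEC23A, with 8945 exonic bases against 4385, had the higher CPM in every library. Those bases are of all annotated exons together, so the order depends on the length used, and which transcripts were present was not tested. Per gene length CREB3L1 and CREB3L2 were near equal untreated, with log2 ratios of 0.05, 0.09 and -0.05. These ratios stood at 1.41, 1.34 and 1.33 with TGF-β1, a shift of 1.33 with no overlap. In CPM, CREB3L2, with 8788 exonic bases against 4037, was the higher untreated (means of 162 and 76.0). The ratio of HSP90B1 to HSPA5 moved from -0.36, -0.44 and -0.35 to -0.51, -0.62 and -0.61, again with no overlap. For SAR1A to SAR1B the groups overlapped, at means of 1.62 ± 0.10 and 1.69 ± 0.07 (SD, n = 3, exact permutation p = 0.4).

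Within the SEC24 family, SEC24D made up 21.1%, 22.5% and 21.2% of the summed FPKM untreated and 23.0%, 24.8% and 24.8% with TGF-β1. SEC24A went from 22.5%, 23.6% and 23.4% to 21.1%, 20.9% and 20.8%. For both genes the groups did not overlap, and for SEC24B (25.7% and 26.9%, exact permutation p = 0.3) and SEC24C (29.5% and 28.0%, exact permutation p = 0.2) they did. KDELR3 took 14.0%, 13.8% and 13.8% of the KDEL receptor FPKM untreated and 14.6%, 15.3% and 16.1% with TGF-β1, without overlap. The shares of KDELR1 (47.1% and 46.2%, exact permutation p = 0.4) and KDELR2 (39.1% and 38.5%, exact permutation p = 0.5) overlapped.

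**Figure D4:**
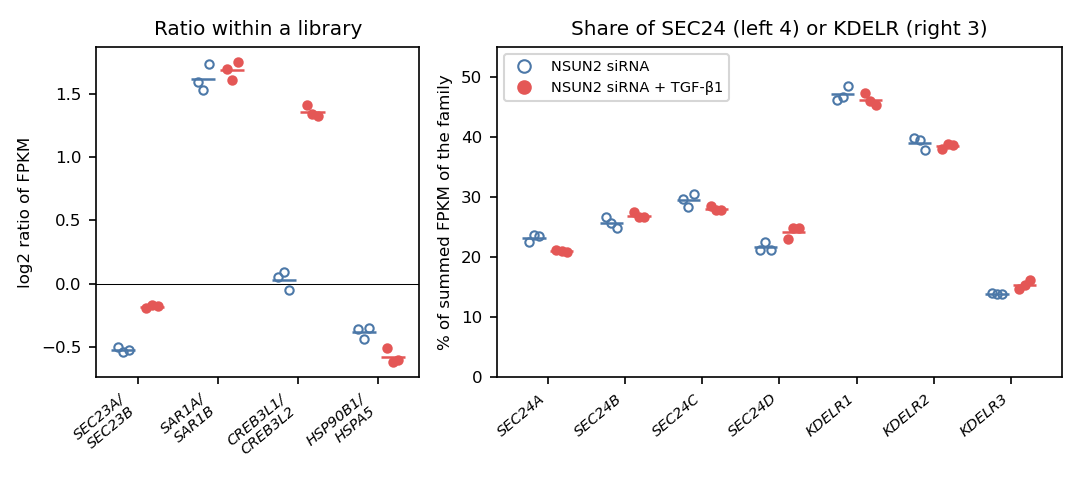
Left, log2 ratio of FPKM between paired genes in each library, and right, percent of the family's summed FPKM for SEC24A to SEC24D and KDELR1 to KDELR3, open points untreated, filled points TGF-β1 and lines the means of 3 libraries. The CREB3L1 to CREB3L2 ratio shifts by 1.33 and the SEC23A to SEC23B ratio by 0.34, while SAR1A to SAR1B overlaps between groups.

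Some positions limit what a gene count can separate, because no source used here says whether counting used strand. Exons of 24 of the 40 genes overlap an exon of another gene, and 5 do so over at least 10% of their bases. SEC24C has 42.9% of its exonic bases opposite AC022400.8, which had 5 to 10 counts per library, and PDIA6 has 25.2% opposite ATP6V1C2, with 22 to 50 counts. DNAJB11 overlaps TBCCD1, which had 337 to 397 counts against at least 1862 for DNAJB11. SYVN1 shares 8.39% of its exonic bases on the same strand and 6.48% on the opposite strand with abundant neighbours (FAU at 4973 to 6021 counts, MRPL49 at 2625 to 3604). DNAJB9, at 357 counts or more, shares 6.45% with PNPLA8 (1110 to 1544 counts) and THAP5. SAR1B (chr5:134601144-134649271, minus strand) and SEC24A (chr5:134648789-134727823, plus strand) lie head to head and overlap over 3.51% and 5.35% of their exonic bases. Their part in the values was not tested.

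Further genes of the same pathway were taken from lists drawn up by function, to be read against the 20.2% of all tested genes that rose and the 18.7% that fell (32.8% and 22.9% at 20 CPM or more). In the PERK, IRE1 and stress list, 3 of 15 tested genes rose and 3 fell, with a median of 0.05. Those shares, 20% each, are near the ones over all tested genes. The share that rose is below the 32.8% at 20 CPM or more. ATF4, the translation-regulated stress factor, rose from 187, 192 and 187 CPM to 232, 240.4 and 238 (0.33 ± 0.03), and ATF3 (0.31) and the phosphatase subunit PPP1R15B (0.19) also rose. DDIT3, the factor also called CHOP, fell from 15.9, 19.7 and 17.1 CPM to 9.90, 13.6 and 12.0 (-0.57 ± 0.11, adjusted p = 5.51e-05), as did PPP1R15A (-0.45) and TRIB3 (-0.31). The sensors EIF2AK3 (PERK, 0.20) and ERN1 (IRE1, -0.03) and the proteases that cleave ATF6, MBTPS1 (0.06) and MBTPS2 (0.01), did not pass the test. ATF3 lost its call when untreated replicate 2 (adjusted p = 0.0935) or TGF-β1 replicate 1 (adjusted p = 0.0618) was left out and with library totals (adjusted p = 0.131), and PPP1R15B with library totals (adjusted p = 0.302).

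Of 25 other folding genes tested, 10 rose (40%) and 3 fell (12%), with a median of 0.09. The prolyl isomerase FKBP14 (0.62) and the collagen chaperone SERPINH1 rose, the latter from 392, 397 and 386 CPM to 586, 585 and 581 (0.58 ± 0.03). The falls were in CLGN (-0.63), ERP29 (-0.31) and GANAB (-0.08). Among 18 other degradation genes 27.8% rose, a share between the background values, and 11.1% fell. The 5 that rose were (with log2 fold changes) UBE2J1 0.44, SELENOS 0.39, DERL1 0.29, DERL2 0.20 and VCP 0.19, and the 2 that fell EDEM2 -0.29 and OS9 -0.10. Among 28 other translocation and glycosylation genes 13 rose (46.4%), led by SSR3 (0.53), OSTC (0.50) and SEC61G (0.34), and 1 fell (DDOST, -0.10).

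Of 33 other ER export genes 12 rose (36.4%, near the background at 20 CPM or more), led by RAB1A (0.40) and GOSR2 (0.34), and 5 fell (SEC31B -0.53, SEC22B -0.27, MCFD2 -0.19, ERGIC3 -0.13, RAB1B -0.13). Of the 13 genes of the COPI coat and its ARF GTPases, which run the return path, 8 rose (61.5%), led by ARF4 (0.46) and ARCN1 (0.34), and 2 fell (COPG2 -0.37, COPE -0.15), with a median of 0.18. Of 14 collagen and fibronectin genes 12 rose and 2 fell, with a median of 1.11. FN1 went from 1355, 1373 and 1349 CPM to 9741, 9109.6 and 8943 (2.77 ± 0.03), and COL1A1 from 1424, 1412 and 1418 CPM to 4359, 3844 and 3776 (1.49 ± 0.05). COL4A1 (2.07) and COL5A1 (1.81) rose as well, and COL8A1 (-0.93) and COL12A1 (-0.81) fell. The smallest rises, of COL6A1 (0.27), COL6A2 (0.41) and COL5A2 (0.44), lay within the range of the 40 genes. Of the 14 genes 11 reached an absolute log2 fold change of 0.5 and 7 reached 1, so other rises lay within that range too.

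Several of the small falls were near the threshold and were not called with 1 library fewer. GANAB lost its call when untreated replicate 1 or 3 or TGF-β1 replicate 2 or 3 was left out (-0.08 to -0.05, adjusted p 0.0502 to 0.287), and OS9 when any library but untreated replicate 2 was (-0.10 to -0.07, adjusted p 0.0544 to 0.212). DDOST (adjusted p = 0.0825) and RAB1B (adjusted p = 0.077) lost theirs without TGF-β1 replicate 2, and COPE without untreated replicate 2 (adjusted p = 0.0799) or TGF-β1 replicate 1 (adjusted p = 0.0651).

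With library totals all but the cargo list had fewer rises. Over all tested genes 11.7% were then higher and 31.1% lower. Higher and lower counts became 1 and 4 for the PERK, IRE1 and stress list, 5 and 7 for other folding, 3 and 6 for other degradation, 5 and 6 for other translocation, 4 and 13 for other export, 5 and 4 for COPI, and 12 and 2 for the cargo, whose median was then 0.99.

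**Figure D5:**
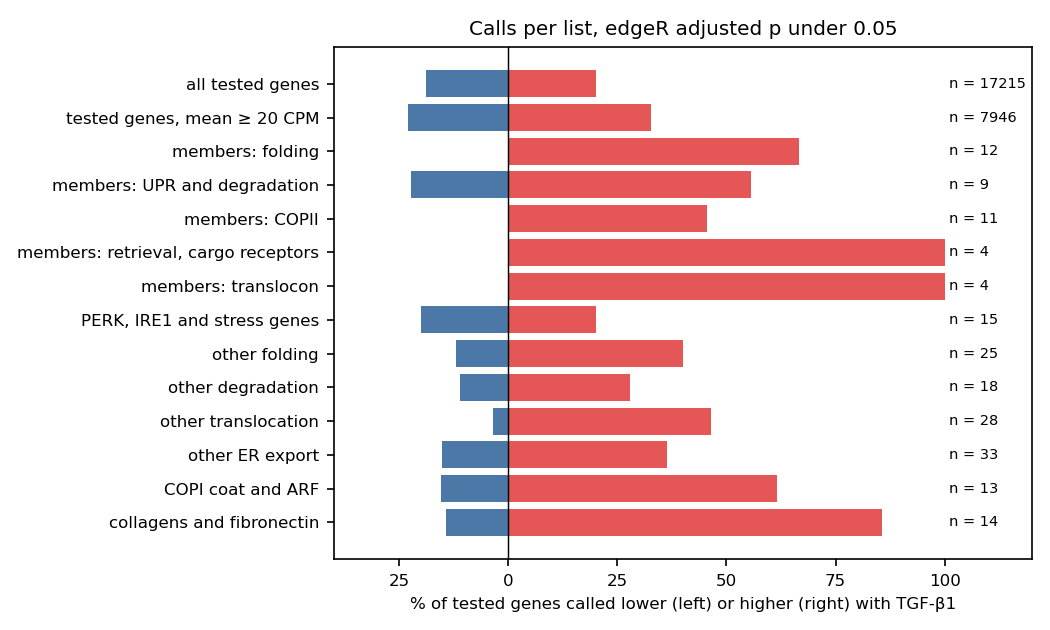
Percent of tested genes in each list that rose (red, right) or fell (blue, left) with TGF-β1, n being the number tested, with all tested genes and those of at least 20 CPM on top. Both background bars (20.2% and 32.8% higher) lie below the bars of every role of the 40 genes, and the cargo list has 12 of 14 genes higher.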

How the data were processed

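The deposited count table holds whole-number read counts per gene for 6 libraries, and the deposited FPKM table holds the same libraries scaled by the authors to gene length and library size. Within each library the deposited FPKM equalled the count over gene length and over 1 size per library. That size, relative to the total count, was 1.07 to 1.08 untreated and 0.984 to 0.987 with TGF-β1. Reads were handled with fastp and with HISAT2 2.2.1 on hg38, per the submitters' processing notes. For the counting tool, the strand setting and the annotation the sources used here name nothing. All 58735 gene IDs matched GENCODE 29 in start, end and strand. Another 6 sample columns per table, which no sample label matched, stayed out.

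Counts were tested with edgeR 4.0.16 (R 4.3.3): filterByExpr defaults (minimum count 10, minimum total 15), TMM factors, robust glmQLFit and glmQLFTest with group as the only term, two-sided, Benjamini-Hochberg over 17215 genes, threshold 0.05. The common dispersion gave a biological coefficient of variation of 5.62% on 4 residual degrees of freedom. Libraries within a group varied beyond counting noise (chi-square per degree of freedom 3.66 to 4.86), so each counted as 1 sample. Each standard error is the size of the log2 fold change over the square root of F. CPM values use TMM-scaled library sizes, other than the summed marker levels, which use library totals. Scripts were tested on simulated data. Alternatives were DESeq2 1.42.0 (size factors, Wald test), upper-quartile factors, library totals, other filters, a fit that is not robust, a replicate block, leaving out each library, and limma 3.58.1 on log2(FPKM + 1) or log2(FPKM + 0.1), with a mean FPKM of at least 0.5 or none. Paralog ratios used FPKM with no pseudocount.

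The 40 genes and all lists were chosen with earlier results of these data known. Named are all 40, NSUN2, the called genes with the largest change in each further list (up to 3, mean of 5 CPM or more), every riser or faller of such a list where 5 or fewer of its genes rose or fell, and COL1A1, FN1, DDIT3 and ATF4. EIF2AK3, ERN1, MBTPS1, MBTPS2, COL6A1, COL6A2, COL5A2 and the stellate markers were named in addition, after their values were seen. Protein sequences were not used here.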

Additional observations from a re-analysis of the deposited data

How the results depend on the processing

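With library totals alone 2019 genes were higher and 5354 lower (3471 and 3226 with TMM factors). Among the 40 genes 6 were then lower and the median was 0.028, with 4 folding genes higher and 2 lower, 2 COPII genes lower, and 2 retrieval and cargo receptors higher. HSP90B1 (-0.025, adjusted p = 0.520), CANX (-0.015, adjusted p = 0.710) and SEL1L (-0.0035, adjusted p = 0.948) changed sign there. With upper-quartile factors 4 of the 40 were lower, 1 of them in folding and 1 in COPII, and the median was 0.10. With limma on log2(FPKM + 1) and no filter, 1978 genes were lower, as was 1 of the 40, of the unfolded protein response and degradation group. The cause was not tested. Over the 6 fits that each leave out 1 library, the median of the 40 ran from 0.13 to 0.17, with 24 to 27 of them higher and 2 lower in each. Of the results of single genes among the 40, 650 kept their side of the threshold and any call its direction, 20 lost a call, 7 gained 1 and 3 are the sign changes of called genes above. Among genes not called, 8 had the other sign in some setting (10 results, 8 of them with library totals), none of them called there. The replicate block gave 26 higher and 2 lower and a median of 0.15. Same-numbered libraries did not deviate together (correlations -0.0049, 0.011 and -0.0091), and 2 of 6 correlated best with their own number. No pairing by number was thus seen, and whether same-numbered cultures were handled together cannot be told from these values.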

Other observations

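The stress response elements were also read in genes outside the 40. In all, 44 genes had ERSE or ERSE-II letters in a RefSeq window and 30 of them were tested, of which 12 rose, 3 fell and 15 did not pass the test, with a median of 0.06. The share that rose, 40%, compares with 20.2% of all tested genes and 32.8% of those of at least 20 CPM. The 20 tested genes that are not among the 40 held 6 that rose, 3 that fell and 11 that did not pass, with a median of -0.02, and the 30% that rose is near the background. The largest change of these was a fall, in NAV2 (-0.69 ± 0.04, adjusted p = 2.65e-18), and SYNPO fell as well (-0.28 ± 0.06, adjusted p = 0.000304). GYS1, muscle glycogen synthase, rose the most (0.66 ± 0.04, adjusted p = 1.32e-16), and SERP1, an ER membrane protein of the translocon, rose by 0.21 ± 0.05 (adjusted p = 0.000285). FICD, which switches BiP off by AMPylation, fell from 18.4, 19.9 and 17.6 CPM to 12.6, 15.9 and 14.5 (-0.38 ± 0.10, adjusted p = 0.00201). These 5 genes were chosen after their values were seen.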
